A study of Mus musculus with 4 samples.

Results

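The 58 cells described here had the highest share of cell-cycle transcripts out of 174 ranked cells sorted as bone marrow haematopoietic stem cells (HSC). Some of them carried granulocyte and monocyte markers, as described below. The study sorted HSC from Mat KO and wild-type (WT) mice, picked them singly and counted their polyadenylated RNA by unique molecular identifiers (UMIs) in 2 libraries per genotype. Its title concerns small nucleolar RNAs of the imprinted Dlk1-Gtl2 locus in long-term HSC. The labels name the Mat KO genotype without saying which segment was removed, give no age, and name no animal for any library. The labels name no agent or treatment beyond keeping the sorted cells on ice. P-values therefore rest on how values, or differences within libraries, varied between libraries, which may be technical. In the gene tests edgeR also pooled this spread over genes.

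The members were found from the UMIs themselves. Of 384 barcodes, 188 had at least 1000 detected genes, and 14 of these were dropped because at least 0.25% of their UMIs lay in 7 early B-lymphoid genes. Each of the remaining 174 cells was scored by the percentage of its UMIs in 11 genes. They were Top2a, Mki67, Cenpf, Birc5 and Cdk1, which act mainly in G2 and mitosis, and Mcm2, Mcm4, Mcm6, Pcna, Tyms and Rrm2, which act in DNA replication and nucleotide supply. The third of the cells with the highest score, pooled over all libraries, were the members, and the other 116 cells are called the rest. The share was cut at 0.0800%, the lowest member, with the highest cell outside at 0.0799%. Near this cut, 9 members and 8 cells of the rest lay within 10% of it, so the members are a range of a score and not a separate cell type.

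Adult HSC are mostly quiescent and enter the cell cycle rarely. A cell that enters it first licenses replication origins with the MCM complex, then copies its DNA while making histones and nucleotides, and finally condenses and segregates its chromosomes with kinesins, kinetochore proteins and the chromosomal passenger complex. Genes of replication are switched on largely by E2F factors, whose sites read TTTCCCGC or close variants. Many mitotic genes carry a cell cycle homology region, TTTGAA, a few turns of DNA from CCAAT boxes, and are held down in resting cells by the DREAM complex.

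The promoters of 4 genes that were higher in members are shown because they hold these motifs. They run from 250 bases before to 50 after the start of the gene in RefSeq on GRCm38.p6, 5′ to 3′ on the gene's strand. Ccnb2, a mitotic cyclin, lies at chr9:70421505-70421804 on the minus strand, and Cdca8, a chromosomal passenger subunit also called borealin, at chr4:124936868-124937167 on the minus strand. Mcm7, a subunit of the replicative helicase, lies at chr5:138171834-138172133 on the minus strand. Pclaf, a PCNA-binding protein listed in the files as 2810417H13Rik, lies at chr9:65890073-65890372 on the plus strand. Capitals mark TTTGAA and CCAAT in the first pair and E2F sites (TTTCCCGC, TTTCGCGC, TTTGCCGC or TTTGGCGC) and CCAAT in the second pair, on either strand. Adjacent capitals are overlapping motifs.
Ccnb2: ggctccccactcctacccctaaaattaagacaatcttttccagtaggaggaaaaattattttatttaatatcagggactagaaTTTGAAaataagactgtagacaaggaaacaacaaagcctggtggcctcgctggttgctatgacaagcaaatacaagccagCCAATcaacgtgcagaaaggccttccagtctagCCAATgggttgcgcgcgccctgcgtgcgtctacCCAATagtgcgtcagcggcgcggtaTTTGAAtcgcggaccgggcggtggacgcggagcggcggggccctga
Cdca8: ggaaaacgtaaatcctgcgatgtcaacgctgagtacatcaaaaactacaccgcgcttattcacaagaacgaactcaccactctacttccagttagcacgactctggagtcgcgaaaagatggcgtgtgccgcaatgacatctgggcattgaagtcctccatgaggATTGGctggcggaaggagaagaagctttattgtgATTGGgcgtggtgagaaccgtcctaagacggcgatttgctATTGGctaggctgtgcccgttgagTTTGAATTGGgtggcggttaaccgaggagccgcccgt
Mcm7: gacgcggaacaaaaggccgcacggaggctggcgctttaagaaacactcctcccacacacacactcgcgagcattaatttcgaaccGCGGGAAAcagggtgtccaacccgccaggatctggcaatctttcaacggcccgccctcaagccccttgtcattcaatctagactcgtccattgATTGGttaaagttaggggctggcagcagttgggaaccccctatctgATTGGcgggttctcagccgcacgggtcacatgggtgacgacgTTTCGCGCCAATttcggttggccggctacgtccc
Pclaf: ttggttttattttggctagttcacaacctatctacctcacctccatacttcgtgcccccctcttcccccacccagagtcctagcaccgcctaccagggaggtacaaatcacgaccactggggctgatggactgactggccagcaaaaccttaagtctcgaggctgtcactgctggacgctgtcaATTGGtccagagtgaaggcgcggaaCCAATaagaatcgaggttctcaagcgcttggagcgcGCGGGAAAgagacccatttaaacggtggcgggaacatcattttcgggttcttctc

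The members were unevenly spread over the libraries. Mat KO replicates 1 and 2 gave 12 of 39 and 6 of 45 cells, and WT replicates 1 and 2 gave 13 of 43 and 27 of 47. Their shares were 30.8%, 13.3%, 30.2% and 57.4%, with exact binomial 95% intervals of 17.0 to 47.6%, 5.05 to 26.8%, 17.2 to 46.1% and 42.2 to 71.7%. The genotypes overlapped, since Mat KO replicate 1 lay above WT replicate 1. The mean share was 22.1% ± 12.3 (SD, n = 2 libraries) in Mat KO and 43.8% ± 19.2 (SD, n = 2) in WT, a difference of -21.8 percentage points (exact two-sided permutation p = 0.667, where 2 libraries against 2 cannot go below 0.33). It was -8.18 points without WT replicate 2, -13.1 without Mat KO replicate 2 and -35.4 without WT replicate 1.

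**Figure D1:**
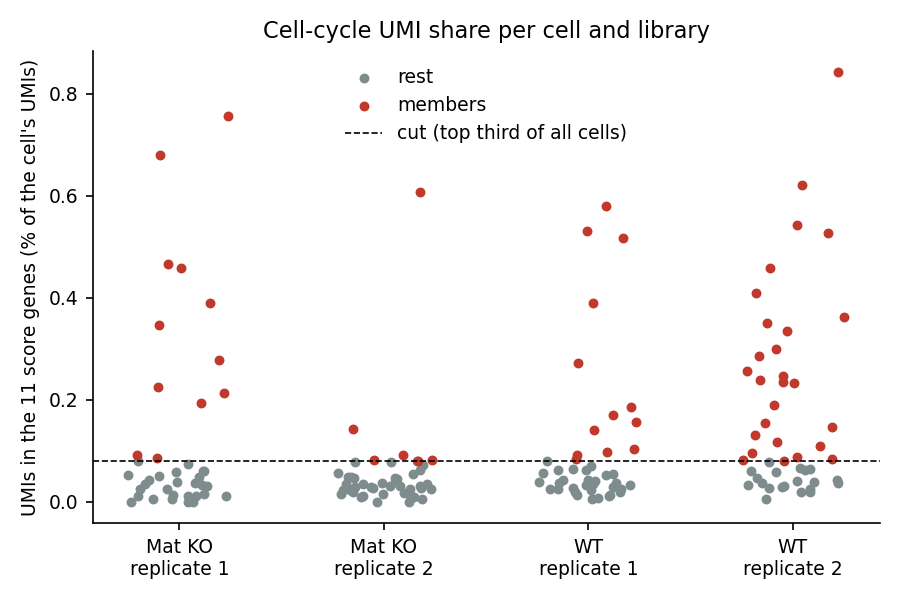
Each point is 1 of the 174 cells, placed by library (horizontal axis) and by the percentage of its UMIs in the 11 score genes (vertical axis); members are red, the rest grey, and the dashed line is the cut. The members run from 0.0800% to 0.842% with no gap at the cut, and WT replicate 2 holds 27 of the 58.

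The member score had a median of 0.229% and reached 0.842%, against a median of 0.0327% in the rest, where 5 cells were at 0. These values chose the members and are given as a description. Of the members, 31 lay above 0.2% and 27 at or below it. Score and depth were weakly related over the 174 cells, which share 4 libraries (Spearman rho 0.185). When each cell was thinned to 8800 UMIs and scored again, 41 of the 52 members with that depth were again among the top cells.

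Members differed in which of the 11 genes took most of their score. In 34 members the 5 G2 and mitosis genes (Top2a, Mki67, Cenpf, Birc5, Cdk1) took more UMIs than the 6 replication genes, in 23 the replication genes took more, and in 1 they were equal. Among the 31 members above 0.2%, 23 were led by the mitosis genes. In Mat KO replicate 1 the mitosis genes led in 11 of 12 members, in Mat KO replicate 2 in 3 of 6, in WT replicate 1 in 6 of 13 and in WT replicate 2 in 14 of 27. Over all 174 cells the replication and mitosis shares had a rank correlation of 0.42, and over the 58 members one of -0.06, which the choice of members by the sum of both shares lowers. The cells share 4 libraries, and both values are descriptions.

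**Figure D2:**
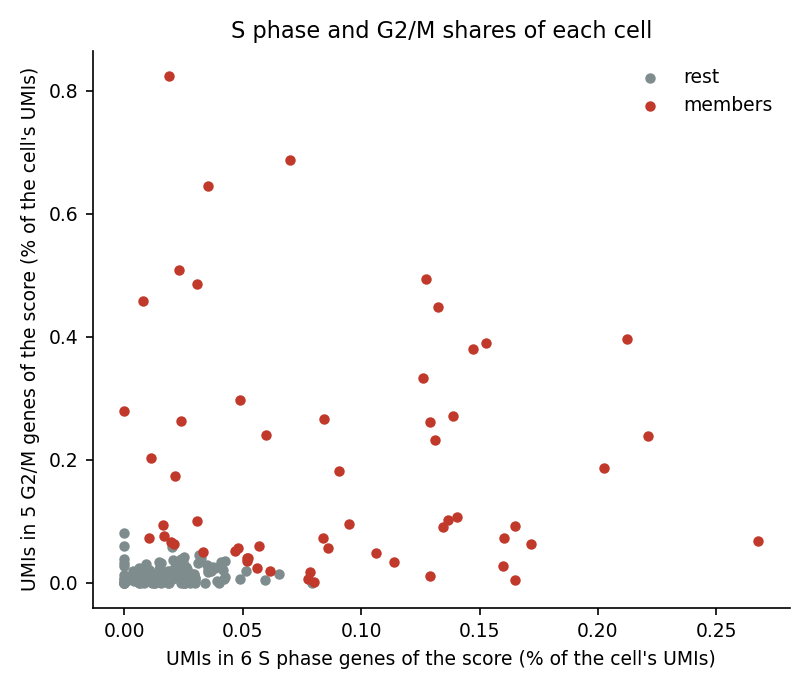
Each point is a cell, placed by the percentage of its UMIs in the 6 S phase genes of the score (horizontal axis) and in the 5 G2/M genes (vertical axis), with members red and the rest grey. The members spread along both axes, from cells high in mitosis genes alone to cells high in replication genes alone.

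The 4 genes that mark such cells were high in members of each library, as the rule requires. Levels are CPM, the UMIs of a gene summed over the cells of a class and scaled to the same total of gene UMIs in every class. Top2a, the topoisomerase that untangles chromosomes, stood at 982, 716, 908 and 814 CPM in members of Mat KO 1, Mat KO 2, WT 1 and WT 2, against 30.04, 49.6, 65.6 and 35.8 in the rest. Mki67, a coat protein of mitotic chromosomes, stood at 1330, 498, 519 and 532 CPM against 40.1, 40.8, 31.5 and 94.0. Mcm2, a helicase subunit, stood at 39.5, 55.3, 127 and 140 CPM against 15.02, 10.4, 39.1 and 13.4. Pcna, the sliding clamp of DNA polymerase, stood at 166, 192, 242 and 310 CPM against 76.1, 86.4, 86.4 and 80.6. In each of these genes the members of every library lay above the rest of every library, and in Mat KO replicate 1 the replication gene Mcm2 was lowest and Mki67 highest among members. At 8800 UMIs per cell, Top2a was seen in 75.0% of members and 27.6% of the rest, and Mcm2 in 44.2% and 6.67%.

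Libraries and cells that stand apart touch several results below. The 8 summed classes held from 271086 UMIs (members of Mat KO replicate 2) to 1913724 (members of WT replicate 2). Of the 6 members of Mat KO replicate 2, 1 held 32.4% of the class's UMIs. Its score was 0.608%, against a class median of 0.0874%, near the cut. How far this cell sets the values of its class was not tested. In members of Mat KO 1, WT 1 and WT 2 the leading cell held 24.0%, 24.9% and 10.8%. All 8 defining long-term HSC markers had UMIs in members and in the rest, and all 4 haemoglobin genes were at 0 in both. However, 7 of the 12 members of Mat KO replicate 1 had over 1% of their UMIs in 13 granulocyte and monocyte markers, and they held 56.5% of that class's UMIs. The other member classes had 0 of 6, 1 of 13 and 1 of 27 such cells, and the rest had 3, 3, 1 and 2. Members with Xist and members with Y-linked UMIs were found in every library, so both sexes were present. All 4 libraries used the same 48 well barcodes, of which 30 gave a ranked cell in every library. UMIs counted molecules more than once, at 5.18 to 7.37 UMIs per well with a rare spike-in. The score of a shallow member may therefore rest on few molecules. Examples are a member of Mat KO replicate 1 with 2229 UMIs (score 0.224%) and a member of WT replicate 2 with 4798 UMIs (score 0.0834%). How many molecules lay behind a score was not tested. The intervals on member shares are based on numbers of cells and cover counting error only.

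Members held more RNA than the rest of their library. The median member carried 50931, 44271.5, 89091 and 53624 gene UMIs in Mat KO 1, Mat KO 2, WT 1 and WT 2, and the median cell of the rest 31899, 23599, 42119 and 38607. Divided by each cell's spike-in UMIs, which stand for a fixed amount of added RNA, the medians were 1.12, 0.858, 1.24 and 1.23 against 0.648, 0.649, 0.815 and 0.790. The members were higher in 4 of 4 libraries, and the lowest member class lay above the highest rest class. The mean log2 ratio was 0.61 (SD 0.157, n = 4 libraries), or 1.52-fold (exact paired permutation p = 0.12, two-sided, the smallest that 4 pairs allow). At 8800 UMIs per cell the median number of genes was also higher in members, at 2588, 2396, 2615 and 2656.5 against 2205, 2239, 2318 and 2308.

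**Figure D3:**
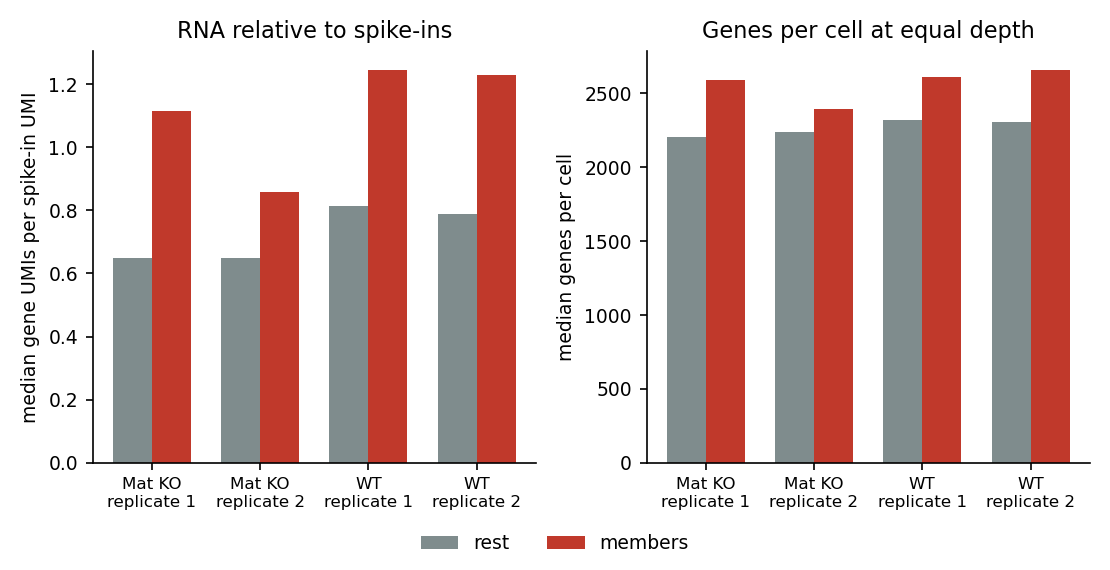
Bars give the median per cell in each library, with members red and the rest grey: gene UMIs per spike-in UMI on the left and genes detected at 8800 UMIs per cell on the right. In all 4 libraries the member bar is the higher in both panels.

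The genes beyond the score were then compared between members and the rest within each library. The same cells whose score genes chose the members supply these counts, so the test asks which other genes varied with the score in each of 4 libraries, and it is no independent evidence that the members cycle. Of 8520 genes tested by edgeR's quasi-likelihood test with the library as a term, 119 were higher in members (1.4% of the genes tested) and 26 lower (0.305%), 1.7% in all, at a Benjamini-Hochberg adjusted p under 0.05. The higher genes had a median log2 fold change of 3.33 and the lower ones -2.03. Of the 119, 81 belonged to 11 lists of cell-cycle genes, which held 238 of the 8520 genes tested. Members lay above the rest in 4 of 4 libraries for 113 of the 119 (10.2% of all genes tested did so), and below it for 21 of the 26 (9.69%). The 4 member classes and the 4 rest classes did not overlap in 103 of the 119 and 10 of the 26, against 7.24% of all genes tested. Without the cells of other lineages 101 and 35 genes passed, of which 90 and 17 were among the genes above. DESeq2 called 231 and 123.

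Of the 11 cell-cycle lists, that of the spindle and kinetochore had the highest share of higher genes. Of 41 tested, 27 were higher in members and 0 lower, with a median log2 fold change of 3.71 against -0.06 over all genes tested. Nusap1, a microtubule-bundling protein of the spindle, stood at 618, 173, 295 and 244 CPM in members of Mat KO 1, Mat KO 2, WT 1 and WT 2 and at 23.0, 14.4, 7.57 and 9.85 in the rest. The classes did not overlap, and its log2 fold change was 4.54 (SE 0.42, edgeR adjusted p = 1.49e-06), a 23.2-fold rise. Cdca8 stood at 383, 99.6, 249 and 185 CPM against 4.01, 6.40, 5.05 and 8.96 (log2 fold change 5.05, SE 0.53, edgeR adjusted p = 5.09e-06). The lowest member value in both genes was that of Mat KO replicate 2, and it still lay above every value of the rest. That class has 6 cells, 1 of which held 32.4% of its UMIs. Kif11, the kinesin that pushes spindle poles apart, rose by 4.58, the midzone protein gene Prc1 by 4.25, the kinetochore scaffold gene Casc5 by 4.52 and the kinetochore gene Spc24 by 4.89 on the log2 scale.

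**Figure D4:**
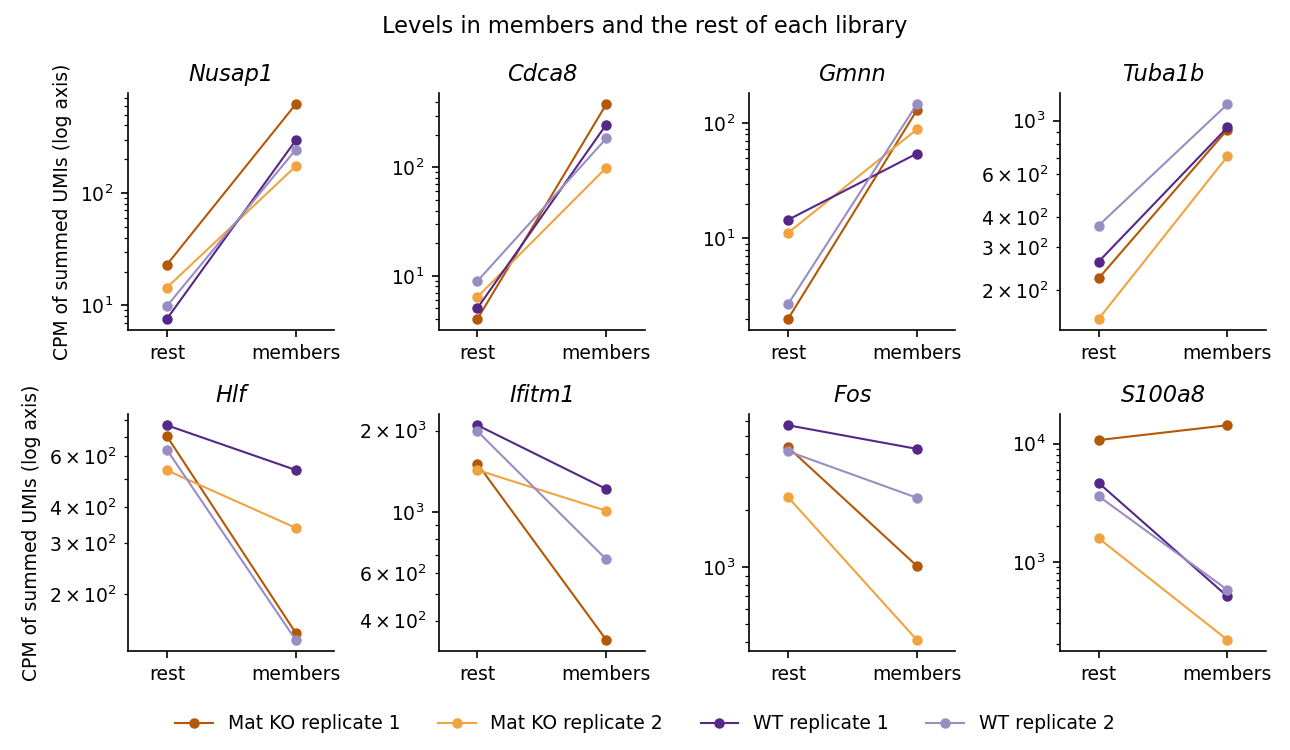
Each panel is a gene, with CPM of summed UMIs on a log axis for the rest and the members of each library; a line joins the classes of 1 library. Nusap1, Cdca8, Gmnn and Tuba1b rise in all 4 libraries, Hlf, Ifitm1 and Fos fall in all 4, and S100a8 falls in 3 and lies higher in members of Mat KO replicate 1.

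Part of the chromosome structure, cytokinesis and cyclin genes were higher as well. In the condensin and cohesin list 6 of 17 tested genes were higher, among them the condensin subunits Smc4 (log2 fold change 2.35), Smc2 (2.09) and Ncaph (4.26) and the cohesin acetyltransferase Esco2 (5.64). In the cytokinesis and mitotic exit list 12 of 23 were higher, including the ubiquitin ligase adaptor Cdca3 (4.85). The tubulin genes Tuba1b (1.92) and Tubb5 (1.72) were in the same list. Of 12 cyclin and kinase genes 4 were higher: Ccnb2 (4.46), Ccna2 (3.69) and the kinase-binding subunits Cks1b (2.54) and Cks2 (1.92). In Mat KO replicate 2, however, Cks2 was slightly lower in members. Ccnb2 stood at 437, 95.9, 486 and 125 CPM in members against 17.0, 13.6, 6.31 and 7.16 in the rest, and 1 cell held 40.6% of its UMIs. Leaving out 1 library ended the calls of Cks2 (without WT replicate 1 or 2) and Ncaph (without Mat KO replicate 1). When members were chosen by the 6 replication genes of the score alone, Nusap1 (1.77) and Ccnb2 (1.1) did not pass (edgeR adjusted p = 0.254 and 0.692), and Tuba1b, Tubb5 and Esco2 still did.

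Replication genes were also higher. In the list of origin licensing and firing 6 of 21 tested genes were higher (median log2 fold change 1.88), and in the list of the replication fork 8 of 29, where all 29 fold changes were positive (median 1.39). Gmnn, the inhibitor that keeps origins from being licensed again, stood at 130, 88.5, 54.6 and 146 CPM in members against 2.003, 11.2, 14.5 and 2.69 in the rest. Its classes did not overlap (log2 fold change 3.87, SE 0.76, edgeR adjusted p = 0.00616), and the call was lost without WT replicate 2 (adjusted p = 0.0865). Mcm7 (1.75), Mcm10 (5.04), which links helicase and polymerase, and the origin subunit Orc2 (2.06) also passed, with adjusted p of 0.0211, 0.0211 and 0.0431. At the fork, the ligase Lig1 (2.21), the fork protection factor Tipin (2.12), the checkpoint adaptor Clspn (3.17) and the flap endonuclease Fen1 (3.18) passed. Many of these calls were lost when 1 library was left out, while the log2 fold changes stayed positive, for example between 1.86 and 2.28 for Orc2. Without WT replicate 2 those of Mcm7, Orc2, Lig1, Tipin, Clspn and Fen1 were lost, and without WT replicate 1 those of Orc2, Tipin, Clspn and Fen1. Without Mat KO replicate 2 those of Mcm7, Mcm10 and Orc2 were lost, and without Mat KO replicate 1 those of Orc2 and Fen1. When the cells of other lineages were left out, Clspn (2.61), Fen1 (2.50) and Mcm7 (1.41) did not pass (edgeR adjusted p = 0.148, 0.158 and 0.0742).

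Nucleotide and histone genes were among them as well. Tk1, the thymidine kinase of the salvage pathway, stood at 45.9, 155, 64.1 and 120 CPM in members against 7.01, 4.80, 2.52 and 3.58 in the rest (log2 fold change 4.31, SE 0.71, edgeR adjusted p = 0.00131). Of 20 nucleotide synthesis genes only Tk1 and the dUTPase gene Dut (1.72) passed, and 18 had positive values. The call of Dut was lost without either WT library. Rrm1, the large subunit of ribonucleotide reductase, had 1.58 with an adjusted p of 0.0632. Of 25 histone and chromatin assembly genes 15 were higher, led by the chromatin protein gene Hmgb2, at 5107, 1512, 2900 and 2262 CPM against 707, 616, 522 and 422. The histone gene Hist1h2ae (4.46), the maintenance DNA methyltransferase gene Dnmt1 (3.02) and the variant histone genes H2afx (2.40) and H2afz (1.71) passed too, the last of which is also in the cytokinesis list. Histone gene copies are near-identical, and the sources used here do not say how reads were split between them.

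Few repair genes passed, and no transcription factor of the programme. Of 18 DNA repair and checkpoint genes 2 passed, among them the helicase gene Blm (2.33), and the list's median was 2.44. Blm did not pass when any 1 library was left out. None of the 17 tested genes for E2F, DREAM and mitotic transcription factors passed by edgeR. E2f8 had 3.05 (adjusted p = 0.0768) and E2f1 4.17 (adjusted p = 0.118), and both passed with DESeq2 (adjusted p = 0.00253 and 0.00653).

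**Figure D5:**
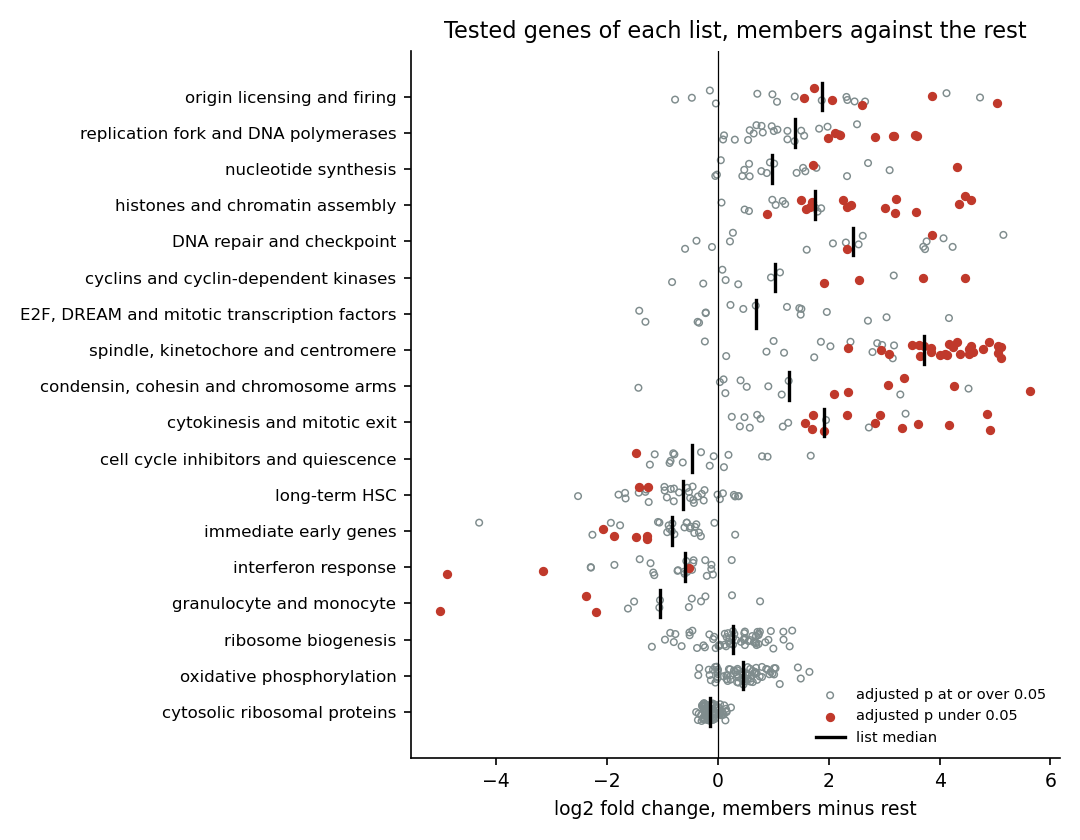
Each circle is a tested gene, placed by its log2 fold change of members minus rest (horizontal axis) in the row of its list (vertical axis); red circles passed at an adjusted p under 0.05 and the black bar is the list median. The spindle list has the highest median, 3.71, and the long-term HSC, immediate early, interferon and granulocyte lists have medians below 0.

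Outside the cell-cycle lists 38 genes were higher. Pclaf was at 334, 70.1, 174 and 268 CPM in members and at 3.004, 2.40, 4.42 and 7.16 in the rest, a 44.7-fold rise without overlap. A further 4 genes were picked after their values were seen: Dtl, a ubiquitin ligase adaptor of S phase (3.92), the kinase gene Melk (5.28), the chromatin ATPase gene Atad2 (2.23) and the abundant chromatin protein gene Ptma (0.75), the smallest rise of the 119. Melk and Ptma did not pass without Mat KO replicate 2 or WT replicate 2, nor Melk without WT replicate 1. Car1, a carbonic anhydrase of early erythroid cells, had 4.27, with 752 CPM in members of WT replicate 2, 0 to 52.2 in the other member classes and 52.8% of its UMIs in 1 cell. Of 6 erythroid genes tested it alone passed.

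The promoter motifs were counted over all genes tested, on both strands and with overlaps. Of the 119 higher genes 99 had a RefSeq promoter, with 114 promoters in all. TTTGAA was in 38.6% of these and CCAAT in 67.5%, against 11.9% and 37.4% of 8833 promoters of the genes tested. Both stood together in 32.5% against 4.77%, and an E2F site in 21.9% against 4.42%. Higher genes of the 3 mitosis lists held TTTGAA with CCAAT in 47.5% of 40 promoters and an E2F site in 4 of them. Higher genes of the 3 replication lists held the pair in 0 of 19 promoters and an E2F site in 36.8%. The promoters of the 26 lower genes held the pair in 6.90% of 29 and an E2F site in 0. These are matches of letters in a window and not measured sites.

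Most stem cell genes had lower values in members, though few passed. Of 34 genes in a long-term HSC list 28 had negative values (median -0.62), against 4549 of 8520 over all genes tested, and 2 passed. Hlf, a transcription factor that marks long-term HSC, stood at 147, 339, 538 and 139 CPM in members against 704, 537, 768 and 632 in the rest, lower in 4 of 4 libraries with 1 member class just above the lowest rest class. Its log2 fold change was -1.42 (SE 0.30, edgeR adjusted p = 0.0126), and the call was lost without WT replicate 2 (adjusted p = 0.130). Ifitm1, an interferon-inducible membrane protein high in HSC, stood at 340, 1014, 1220 and 673 CPM against 1509, 1432, 2093 and 1988 without overlap (-1.26, SE 0.22, edgeR adjusted p = 0.00200). Ly6a, which encodes the sorting marker Sca-1, had -1.79 (adjusted p = 0.146) and Procr, the protein C receptor, -1.66 (adjusted p = 0.1996). Both were lower in members of 3 libraries and higher in members of Mat KO replicate 2.

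The share of UMIs in the 8 defining long-term HSC markers was lower in members in each library. Its median per cell was 0.0350%, 0.0669%, 0.0742% and 0.0545% in members and 0.119%, 0.0872%, 0.132% and 0.116% in the rest. The class was not empty of them, since Hlf was seen in 65.4% of members and 85.7% of the rest at 8800 UMIs per cell. In the wider list of 34 genes, Mat KO replicate 2 had a median log2 difference of 0.10, against -1.58, -0.24 and -0.93 in the other libraries. Without the cells of other lineages the calls of Hlf (-1.33) and Ifitm1 (-1.19) stood, at adjusted p of 0.00336 and 7.54e-05. None of 11 multipotent progenitor genes passed, with Cd34 at -1.005 (adjusted p = 0.3797).

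Immediate early genes, which respond to signals and to cell isolation within minutes, mostly had lower values in members. Of 29 tested, 28 had negative values (median -0.83), against 4549 of 8520 over all genes tested, and 5 passed. By library the median log2 ratio was -1.72 in Mat KO 1, -0.64 in Mat KO 2, -0.096 in WT 1 and -0.82 in WT 2. Fos, an AP-1 subunit, stood at 1014, 409, 4250 and 2336 CPM in members against 4338, 2353, 5679 and 4127 in the rest, lower in 4 of 4 libraries with overlap between libraries (-1.47, SE 0.24, edgeR adjusted p = 0.000985). The phosphatase gene Dusp1 had -2.07, the mRNA decay factor gene Zfp36 -1.27 and the small GTPase gene Gem -1.87. The fifth, Dusp2 (-1.28), is named because it completes the count. Gem did not pass without Mat KO replicate 1 or either WT replicate, nor Dusp2 without Mat KO replicate 1 or WT replicate 2. The cell-cycle inhibitor list had 1 call of 16, Txnip, a thioredoxin-binding protein, at 111, 84.8, 179 and 143 CPM against 393, 176, 328 and 586. Its log2 fold change was -1.47 (edgeR adjusted p = 0.0132), lost without WT replicate 2 (adjusted p = 0.181). Btg2, an antiproliferative gene, had -0.87 (adjusted p = 0.100).

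Interferon, granulocyte and nuclear RNA genes made up much of the remainder. Of 25 interferon genes 3 were lower, Ifit1 (-4.88), Rsad2 (-3.15) and the MHC class I subunit gene B2m (-0.51). In WT replicate 1, however, B2m was slightly higher in members. A single cell held 62.4% of the Ifit1 UMIs, and without each gene's leading cell neither Ifit1 nor Rsad2 passed (adjusted p = 0.107 and 0.194). Rsad2 was also lost without Mat KO replicate 1 or WT replicate 2, and B2m without either replicate 2. The granulocyte genes Retnlg (-5.00), S100a8 (-2.20) and S100a9 (-2.36) passed among 13 tested, though S100a8 and S100a9 were higher in members of Mat KO replicate 1. Without the cells with over 1% of UMIs in granulocyte markers, and with the members chosen anew, Retnlg had -0.61, S100a8 -0.26 and S100a9 -0.49 (edgeR adjusted p = 0.937, 0.770 and 0.627). Slpi (-3.16) and Slfn4 (-4.40) had 46.6% and 40.8% of their UMIs in 1 cell, and neither passed without WT replicate 2. Malat1, a nuclear noncoding RNA, stood at 12705, 16342, 17495 and 12276 CPM against 21240, 18549, 21411 and 18529 without overlap (-0.47, edgeR adjusted p = 0.000547). Rn45s, the ribosomal RNA precursor, had -0.32, Ccnt1, an elongation factor cyclin, -2.00 and the zinc finger gene Zfp950 -2.85, which did not pass without WT replicate 1. DESeq2 did not call B2m, Malat1 or Rn45s (adjusted p = 0.169, 0.153 and 0.384).

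No gene of the growth lists passed by edgeR, and their medians were small. Over all genes tested 3971 of 8520 had positive values. Of 61 ribosome biogenesis genes 45 had positive values (median 0.28, with a median log2 ratio of -0.0089 in WT replicate 1 and 0.32 to 0.75 in the other libraries), with nucleolin, Ncl, at 0.47 (adjusted p = 0.163) and the snoRNP protein gene Nop58 at 0.74 (adjusted p = 0.190). Of 70 oxidative phosphorylation genes 57 were positive (median 0.46), with Sdhd, a subunit of complex II, at 1.65 (adjusted p = 0.0815). Of 31 proteasome genes 27 were positive (median 0.40), with Psma1 at 0.95 (adjusted p = 0.224). The 72 cytosolic ribosomal protein genes had a median of -0.13, with 55 negative values and Rpl13 at -0.30 (adjusted p = 0.258).

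The same contrast was made in each genotype alone. In WT libraries 115 genes were higher and 42 lower, of 9330 in the fit with the score genes included. In Mat KO libraries 41 and 25 of 8092 were. Of the higher genes 31 were called in both, 27.0% of the WT calls and 75.6% of the Mat KO calls, and of the lower genes 7, 16.7% and 28.0%. Of the 98 WT calls tested in Mat KO, 97 had positive values there. In the fit of all 4 libraries 3971 of 8520 genes tested were positive. These counts do not test whether the genotypes differ.

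Whether the member contrast differed between genotypes was tested by an interaction term. Of 10266 genes 6 passed (0.0584%), 4 with a signed member-minus-rest difference that was higher in Mat KO (0.039%) and 2 with one that was lower (0.0195%). Fos was the 1 with broad detection: its member-minus-rest difference was lower in Mat KO by 1.80 on the log2 scale (edgeR adjusted p = 1.08e-05). Its levels in members and the rest were 1014 against 4338 and 409 against 2353 CPM in Mat KO, and 4250 against 5679 and 2336 against 4127 in WT. The call was lost when the members were the top cells of each library by itself (-0.89) and without WT replicate 1 (-1.63, adjusted p = 0.832), and DESeq2 did not make it (-1.65, adjusted p = 0.103). S100a8 (1.64), S100a9 (1.998) and Wfdc21 (3.35), granulocyte genes, were high in members of Mat KO replicate 1, and their values turned to -0.43, -0.42 and -0.98 without cells of other lineages. Jchain, the immunoglobulin joining chain (6.09), had 54.3% of its UMIs in 1 cell, and the interferon gene Ifit2 (-9.34) had 46.5% in 1 cell. The calls of S100a8, S100a9 and Wfdc21 were lost without replicate 1 of either genotype, that of Jchain without WT replicate 2, and that of Ifit2 without Mat KO replicate 2 or either WT replicate. For this term edgeR estimated an infinite prior degree of freedom, so the test took the spread as known. DESeq2 called 2 genes.

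Within the members alone no gene passed between Mat KO and WT. Of 8143 genes tested by edgeR 0 were called (0.0%), and the lowest adjusted p was 0.9998. At an unadjusted p under 0.05 there were 364 genes, 163 higher and 201 lower in Mat KO. With no difference at all, a share of 0.05 of the genes tested would fall there, which is more than these 364. DESeq2 called 6 and 2. In simulated data of this design 13.6% of 4-fold and 33.3% of 8-fold changes were recovered. The genes of smallest p were led by Ahnak, a scaffold protein gene, whose WT levels of 77.1 and 61.1 CPM compare with 476 and 387 in Mat KO (log2 fold change 2.65), and the tropomyosin gene Tpm4, at 256 and 306 against 45.1 and 41.3 (2.69). On the lower side were the heat shock genes Hspa1a, at 1.58 and 0 CPM against 79.7 and 244, and Hsp90aa1, at 905 and 1269 against 2878 and 2350 (-1.28). Fos stood at 1014 and 409 against 4250 and 2336 (-2.19). These genes were picked for their small p, and each had an adjusted p near 1.00. The genotypes did not overlap in any of the 5, nor in 34.7% of all genes tested.

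By list, 44 spindle genes had a median difference between genotypes of 0.00, with 22 on each side. Over all 8143 genes tested 4236 had values lower in Mat KO and 3907 higher. Replication fork genes had 25 of 29 values lower in Mat KO (median -0.39), and the members of Mat KO replicate 1 were led by mitosis genes in 11 of 12 cells. Granulocyte genes had a median of 3.59, with 11 of 12 positive, and 7 of the 12 members of Mat KO replicate 1 carried those markers. Summed over that list, members stood at 53856 and 819 CPM in Mat KO 1 and 2, and at 2323 and 1448 in WT 1 and 2. Mat KO replicate 2 thus lay below both WT libraries. Immediate early genes had a median of -0.90 with 22 of 28 lower. All 72 cytosolic ribosomal protein genes were lower in Mat KO (median -0.38), against a median of -0.04 over all 8143 genes. Their summed level was lower in Mat KO in the rest too, at 163957 and 181046 CPM against 210591 and 203015 in WT. In members it was 132123 and 174174 against 197814 and 203567. None of these genes passed, and the part of the other-lineage cells in these medians was not tested.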

How the data were processed

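Single cells were profiled by a modified STRT-seq method with an oligo-dT primer carrying a well barcode and a UMI, per the labels' protocols. The authors deposited raw UMI counts per gene and well for 2 Mat KO and 2 WT libraries; mm10, HTSeq and TopHat2 2.0.12 appear in the submitters' processing notes. Spike-ins were used for the RNA ratio alone. The members, the gene lists and the named-gene rule were chosen with earlier results of these data known.

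UMIs were summed per library and class, giving 8 sums, because cells are not replicates. The main test was edgeR 4.0.16 (R 4.3.3), quasi-likelihood, with TMM factors, filterByExpr (minimum count 10) and Benjamini-Hochberg adjustment at 0.05; the 11 score genes stayed in the fit and out of the tests. The library was a term for members against the rest and for the genotype interaction. For members against the rest the spread pooled over genes had 18.5 prior degrees of freedom, against 3 residual ones. Within members these were 7.26 and 2. The SE given with a log2 fold change is its absolute value divided by the square root of edgeR's F statistic. DESeq2 1.42.0 was an alternative. Shares and spike-in ratios were compared by exact two-sided permutation tests. Doublets were not called because cells were picked singly. Named genes were the score genes, the 15 genes of smallest p per direction (6 in the genotype comparisons) and up to 4 leading genes of each list, from which the text names a part. In data simulated from these counts, members against the rest recovered 51.8% of 4-fold and 82.1% of 8-fold changes, and the interaction 5.05% and 15.0%. Same-numbered replicates were checked for pairing (correlation of deviations 0.0193 over 2 pairs) and treated as unpaired. One gene of the DNA repair list is not reported here by name.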

Additional observations from a re-analysis of the deposited data

Results flagged for a closer look

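The 14 cells dropped for B-lymphoid UMIs held a cell-cycle signal of their own. Of these, 13 (92.9%) lay above the cut, with a median score of 0.761% and a highest value of 1.21%, against a member median of 0.229%. They came from all 4 libraries (5, 3, 5 and 1 cells) and are in no comparison of the report other than the alternative that keeps them.

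The difference between members and the rest differed between genotypes by the interaction test in 6 genes. The value in Mat KO minus that in WT was -1.80 for Fos, -9.34 for Ifit2, 6.09 for Jchain, 1.64 for S100a8, 1.998 for S100a9 and 3.35 for Wfdc21 on the log2 scale. Jchain stood at 7607 CPM in the rest of WT replicate 2 and between 7.80 and 289 CPM in every other class. Ifit2 stood at 1.58 and 0 CPM in Mat KO members and 60.6 and 36.1 in WT members. What these values come from was not tested.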

How the results depend on the processing

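For members against the rest (145 genes, 119 higher and 26 lower), DESeq2 gave 354 (231 and 123), no filter on low counts 220 with 73 lower, and keeping the B-lymphoid cells 452 (317 and 135). Thinning every cell to equal depth gave 51 (36 and 15), the replication genes of the score alone 39 (28 and 11), the top 25% of cells 50 lower, and Mat KO libraries alone 66 with 41 higher; WT libraries alone gave 42 lower. Cells with Xist alone gave 10 (7 and 3) and cells with Y-linked UMIs alone 3 (0 and 3), where few cells remain per class; in the latter Mcm7 (-0.077), Rrm1 (-0.90) and Ptma (-0.10) changed sign. These counts come from fits of unlike size. With the score genes included, the main fit held 8531 genes and the fit without the filter 14128. Thinned cells left 3445 genes, cells with Xist alone 3572 and cells with Y-linked UMIs alone 3860. Leaving out 1 library gave 81 to 157 genes, 62 to 122 higher and 19 to 37 lower. Without the replicate block of libraries 11 genes were lower. Mat KO libraries alone, WT libraries alone and the leaving out of shallow cells were chosen after seeing the data.

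For genotype within members (0 genes), no filter gave 59 (49 and 10), DESeq2 8 (6 and 2), thinned cells 1 (1 higher) and the replicate block 7 (4 and 3). The labels do not pair the numbers. The main fit within members held 8154 genes, that without the filter 12979 and that of thinned cells 2018. Leaving out 1 library gave 11 to 193 genes, 8 to 157 higher and 2 to 36 lower, with the lone library assumed to vary like the others. For the interaction (6 genes, 4 with a larger signed difference in Mat KO and 2 with a smaller one), the stricter filter gave 1 (1 and 0), DESeq2 2 (1 and 1), no other lineages 10 (2 and 8), the B-lymphoid cells kept 22 (9 and 13), members taken within each library 1 (1 and 0), thinned cells 7 and 1, no leading cells 7 larger, the top 25% of cells 4 smaller and no shallow cells 4 smaller. Leaving out 1 library gave 2 to 22 genes, 1 to 14 in either direction. Without other lineages S100a8 (-0.43), S100a9 (-0.42) and Wfdc21 (-0.98) changed sign, as did S100a8 without Mat KO replicate 1 (-0.14 to 3.31 when 1 library was left out). The cause was not tested. The difference in member share ranged from -35.4 to -8.18 points and the spike-in log2 ratio from 0.55 to 0.68 when 1 library was left out.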
